A study of Mus musculus with 8 samples.

Results

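Antimicrobial peptides and secreted defence proteins were followed in RNA-seq data of wild type mice and of mice that lack the AP-1 transcription factor JunB in keratin 14-expressing epidermis (JunB cKO). The 10 genes, of 50981 gene symbols in all tables, were chosen by name: the beta-defensin genes Defb1, Defb3, Defb4, Defb6 and Defb14, and Lcn2, Slpi, Camp, Pglyrp1 and Ltf. All 10 are listed in each of the 3 deposited tables. All mice were of the C57BL/6 strain, and the labels give the genotypes as JunB +/+ and JunB -/-. In JunB cKO mice the floxed gene is deleted by Cre under the K14 promoter, which is active in basal epidermal cells, so that blood cells and fibroblasts of the skin keep the gene. Unperturbed samples had no treatment and are labelled as keratinocytes released with trypsin. Hair plucking samples were taken 4 days after depilation and are titled as skin biopsies although their tissue label reads keratinocyte. Wound samples are skin biopsies from day 30 after wounding. RNA of several samples was pooled for each library, and there were 8 libraries in 6 groups, with 2 wound libraries and otherwise 1 library for each genotype. The wound table joins both libraries, so every gene has 1 value per genotype and table, and no difference between genotypes could be tested against the spread between animals.

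The epidermis defends itself with small cationic peptides and with secreted proteins that starve microbes or restrain proteases. Beta-defensins are short, disulfide-rich peptides that disrupt bacterial membranes. Some of them, such as Defb1, are made constitutively in epithelia, whereas Defb3, Defb4 and Defb14 are known as genes that microbes and cytokines such as interleukin 17 induce. Lcn2 encodes lipocalin 2, which binds bacterial siderophores, and Ltf encodes lactoferrin, which binds iron itself. Slpi encodes an inhibitor of neutrophil serine proteases, Camp the cathelicidin precursor, and Pglyrp1 a peptidoglycan-binding protein. Camp, Pglyrp1, Ltf and Lcn2 are also stored in the granules of neutrophils.

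Of the 5 beta-defensin genes, Defb14, Defb4, Defb6 and Defb3 lie next to each other on the plus strand of chromosome 8 in the mouse genome GRCm38. Defb14 (Ensembl gene ENSMUSG00000046354.3) spans 19194357 to 19195212, Defb4 (ENSMUSG00000059230.2) 19198706 to 19201545, Defb6 (ENSMUSG00000050756.3) 19225478 to 19228209, and Defb3 (ENSMUSG00000039775.7) 19293360 to 19295291. Defb1 (ENSMUSG00000044748.8) lies further along the same strand, from 21776599 to 21795185. Each of the 5 transcripts has 2 exons. Defb6 and Defb3 are shown here because they stood at the opposite ends of the measured levels while sharing much of the sequence around their start sites. The RefSeq promoter windows of GRCm38.p6, which run from 250 bases before to 50 bases after the start, are chr8:19225228-19225527 for Defb6 and chr8:19293111-19293410 for Defb3, both on the plus strand. Capitals mark the longest stretch that is identical in both, a run of 60 bases.
Defb6: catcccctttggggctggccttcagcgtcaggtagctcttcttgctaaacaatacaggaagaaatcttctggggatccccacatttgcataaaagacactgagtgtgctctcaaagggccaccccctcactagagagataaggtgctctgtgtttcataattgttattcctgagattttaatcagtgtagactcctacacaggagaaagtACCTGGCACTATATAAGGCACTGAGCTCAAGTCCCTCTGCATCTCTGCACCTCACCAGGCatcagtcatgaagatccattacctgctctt
Defb3: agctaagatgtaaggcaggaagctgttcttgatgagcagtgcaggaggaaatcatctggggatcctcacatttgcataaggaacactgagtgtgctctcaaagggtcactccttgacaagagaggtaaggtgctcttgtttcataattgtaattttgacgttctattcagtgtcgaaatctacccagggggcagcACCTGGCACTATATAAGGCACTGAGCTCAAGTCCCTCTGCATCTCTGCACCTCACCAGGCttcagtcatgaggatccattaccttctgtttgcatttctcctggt

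In an alignment of these windows, 238 of 315 positions were identical (75.6%). The transcripts of Defb6 and Defb3 shared 62.0% of aligned positions, with no identical run longer than 12 bases. No stretch of 75 bases in the principal transcripts of the 10 genes occurred in an annotated transcript of another gene. Introns and unannotated copies in the genome were not searched, so this does not show that each read belongs to 1 gene. Promoter windows were given for 7 of the 10 genes, namely Defb3, Defb6, Lcn2, Slpi, Camp, Pglyrp1 and Ltf. The AP-1 motif TGANTCA, which reads alike on both strands, occurred in 0 of these 7 windows and in 2565 of 32851 windows of all genes (7.81%). These letters are a description of the windows and do not tell whether JunB binds near these genes.

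Levels are given as FPKM, fragment numbers scaled to transcript length and library size, which Cuffdiff divides by the effective length of a transcript. Low FPKM values fall on whole reads, from which the number of reads behind a value was recovered. A level of 1 FPKM of a transcript of 1000 effective bases stood for 16.9 reads in unperturbed wild type but 4.98 reads in unperturbed JunB cKO, for 16.3 and 12.9 reads after hair plucking, and for about 43.4 and 40.3 reads over both wound libraries. Intervals of ratios are exact 95% intervals (Clopper-Pearson) of the read counts and cover counting error only, not the spread between mice. Tables were normalised separately, so levels in different tables are set side by side without a comparison. A gene listed at 0 can be a failed estimate, since Gapdh, a gene of every cell, is listed at 0 in both unperturbed libraries. Unperturbed JunB cKO also carried a background: 1480 receptor genes of smell, pheromone sensing and bitter taste, here called sensory receptor genes and foreign to skin, had a median of 0.543 FPKM and reached 3.90 FPKM there, but a median of 0 in each of the other 5 columns. Expressed genes, here those with at least 1 FPKM in both genotypes, had a median log2 ratio of -0.17 in unperturbed samples. It was 0.00 after hair plucking and 0.01 in wounds. Over genes that reached 1 FPKM in either genotype the unperturbed median was -0.04, and over all genes it was 0.18. Ratios relative to the median use the first set. Whether their intervals include 1 with another set was not computed. As a check of the genotype, Junb had 268 FPKM in wild type against 31.4 in JunB cKO in unperturbed samples, 40.8 and 11.7 after hair plucking, and 33.4 and 15.4 in wounds.

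**Figure D1:**
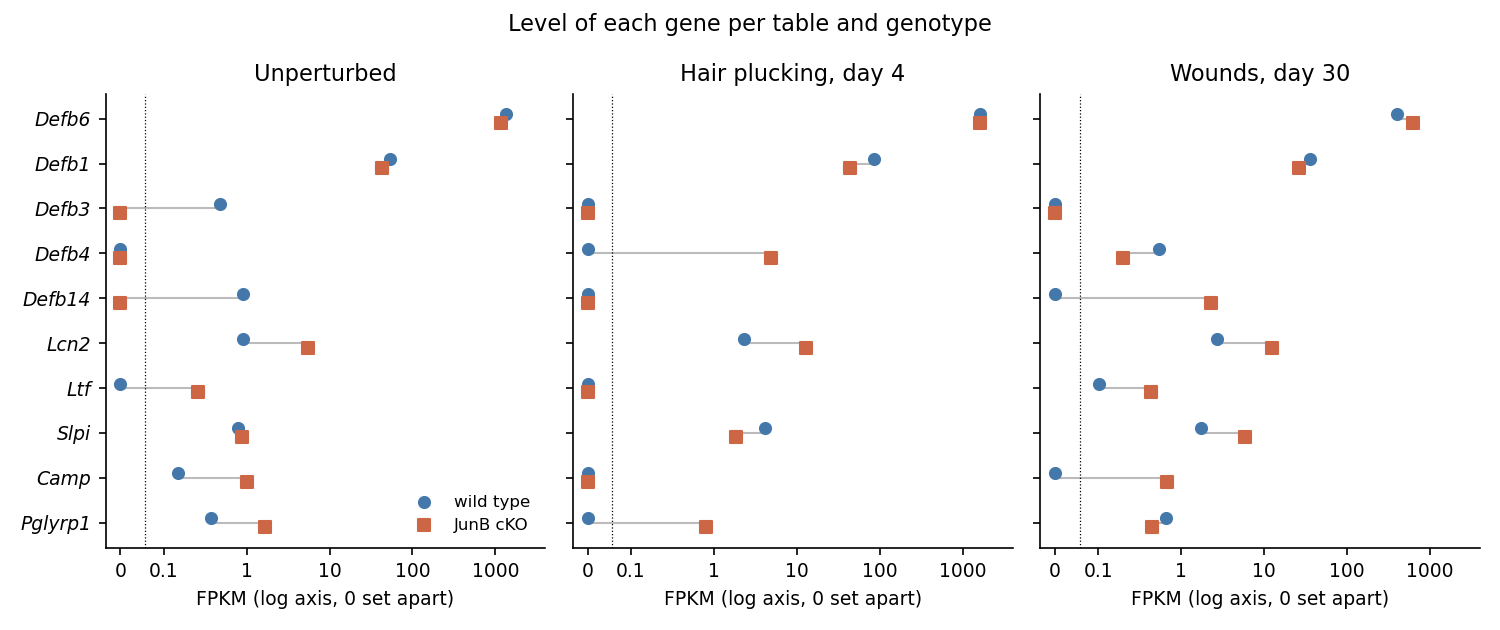
FPKM of the 10 genes in wild type (circles) and JunB cKO (squares) in each table, on a log axis with values listed at 0 set apart on the left of the dotted line. Each point is 1 value without replicates. Defb6 lies between 399 and 1630 FPKM and Defb1 between 26.2 and 85.5 FPKM in all 6 columns, whereas no other gene exceeds 13.0 FPKM.

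Defb6 was by far the most abundant of the 10 transcripts per length, at a similar level in both genotypes in the first tables and higher in JunB cKO in wounds. It had 1343 FPKM in unperturbed wild type and 1169 FPKM in JunB cKO, from 2831 and 726 reads. After hair plucking it had 1630 FPKM in wild type and 1616 FPKM in JunB cKO, from 3314 and 2593 reads. In wounds it had 399 FPKM in wild type and 622 FPKM in JunB cKO. In unperturbed samples the ratio of JunB cKO to wild type was 0.870 (0.801 to 0.944), and it was 0.980 (0.902 to 1.06) relative to the median ratio of expressed genes. The ratio was 0.991 (0.941 to 1.04) after hair plucking, an interval that includes 1. In wounds the ratio was 1.56 (1.48 to 1.65), below the limit of 2-fold used for calls. Of 16 keratinocyte markers, 8 were above and 8 below wild type in JunB cKO wounds, with a median log2 ratio of 0.01 and summed levels of 5942 and 6614 FPKM. The part of the epidermal content of the biopsies in the Defb6 difference was not tested. Fewer cells of a type and less RNA per cell cannot be told apart in these bulk samples.

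Defb1 was lower in JunB cKO in every table. It followed Defb6 in the order of beta-defensin levels in each column except unperturbed wild type, where Defb8 lay between them. It had 53.4 FPKM in wild type and 42.9 FPKM in JunB cKO in unperturbed samples. After hair plucking it had 85.5 FPKM in wild type and 44.0 FPKM in JunB cKO, from 936 and 380 reads. In wounds it had 35.4 FPKM in wild type and 26.2 FPKM in JunB cKO, from about 1032 and 710 reads. The difference was largest after hair plucking, where wild type was 1.94-fold higher (1.72 to 2.197), just under the 2-fold limit. It was 1.35-fold (1.23 to 1.49) in wounds. In unperturbed samples wild type was 1.25-fold higher (1.03 to 1.499), but relative to the median of expressed genes the ratio of JunB cKO to wild type was 0.905 (0.752 to 1.09), an interval that includes 1. Per length, Defb6 exceeded Defb1 25.1-fold in wild type against 27.2-fold in JunB cKO in unperturbed samples. This ratio was 19.1 and 36.8 after hair plucking, and 11.3 and 23.7 in wounds. The excess of Defb6 over Defb1 in the latter tables was thus larger in JunB cKO, through the lower Defb1 value after hair plucking and through both values in wounds.

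The inducible beta-defensins were at the edge of detection. Defb4 was listed at 0 in both unperturbed genotypes, where 3 reads would correspond to 0.700 FPKM in wild type and 2.37 FPKM in JunB cKO. After hair plucking it was listed at 0 in wild type, where 3 reads correspond to 0.726 FPKM, and at 4.91 FPKM in JunB cKO, from 16 reads. In wounds it had 0.547 FPKM in wild type and 0.199 FPKM in JunB cKO, from about 6 and 2 reads, with a ratio of 0.365 (0.0354 to 2.01). Defb4 therefore stood out in 1 of the 6 columns, plucked JunB cKO, and its wound values did not differ beyond counting error. Defb14, the mouse counterpart of human beta-defensin 3, had 0.904 FPKM in unperturbed wild type and 2.29 FPKM in JunB cKO wounds, and it was listed at 0 in the other 4 columns. These values gave estimates of 0.51 reads, counted as 1 read, and of about 3 reads of a transcript of 204 bases. Defb3 had 0.480 FPKM in unperturbed wild type, from an estimate of 0.66 reads counted as 1 read, and was listed at 0 in the other 5 columns. Both were thus not detectable as different between genotypes at this depth. By the transcript lengths used, 3 reads correspond to 7.35 FPKM of Defb3 and 18.1 FPKM of Defb14 in unperturbed JunB cKO. These floors are uncertain and may be too high, since both genes gave estimates below 1 read in unperturbed wild type.

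Among all genes with a beta-defensin symbol, Defb6 made up most of the summed FPKM in each column. Its share was 91.1% in wild type against 93.1% in JunB cKO in unperturbed samples, 92.2% and 96.7% after hair plucking, and 90.4% and 94.6% in wounds. Defb8, a further beta-defensin of the same chromosome, had 66.5 FPKM in unperturbed wild type and 2.19 FPKM in JunB cKO, from 103 reads and 1 read. After hair plucking Defb8 had 18.1 FPKM in wild type, from 27 reads, and was listed at 0 in JunB cKO, where 3 reads correspond to 2.53 FPKM. In wounds it had 4.29 FPKM in wild type and 3.53 FPKM in JunB cKO, a ratio of 0.823 (0.368 to 1.80). Defb8 was thus the beta-defensin furthest apart between the unperturbed genotypes by reads, with wild type 30.4-fold higher (5.33 to 1211), while its wound values did not differ beyond counting error. Defb47 had 35.0 FPKM in plucked wild type and was listed at 0 in plucked JunB cKO. In unperturbed JunB cKO, 14 of 41 beta-defensin genes reached 1 FPKM, against 7 in wild type, among them Defb5 with 7.09, Defb35 with 5.35 and Defb13 with 4.54 FPKM in JunB cKO. Apart from Defb1, Defb6 and these 3 genes, the members of this group of 14 lay within the range of the sensory receptor genes of that library. Wild type had 0 FPKM of Defb5, 3.16 of Defb35 and 1.34 of Defb13. The Defb13 ratio of 3.39 matched the 3.39-fold difference in reads per FPKM between these libraries, and the Defb35 ratio of 1.70 was below it. Defb13 and Defb35 thus had no more reads in JunB cKO. Since 1 read of Defb8 stood for 2.19 FPKM there, these 3 values cannot be set apart from the background by FPKM.

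Lcn2 was the one of the 10 genes that was over 2-fold higher in JunB cKO in all 3 tables. The gene (ENSMUSG00000026822.14) lies on the minus strand of chromosome 2 of GRCm38, from 32384633 to 32388252. It had 0.907 FPKM in unperturbed wild type and 5.53 FPKM in JunB cKO, from about 11 and 20 reads. After hair plucking it had 2.32 FPKM in wild type and 13.0 FPKM in JunB cKO, from 27 and 120 reads. In wounds it had 2.70 FPKM in wild type and 12.4 FPKM in JunB cKO, from about 84 and 357 reads. The value of JunB cKO was above that of wild type in each table. JunB cKO was 6.10-fold higher (2.82 to 14.2) in unperturbed samples, 5.63-fold (3.68 to 8.89) after hair plucking and 4.59-fold (3.60 to 5.87) in wounds. In unperturbed JunB cKO, none of the 1480 sensory receptor genes reached the level of Lcn2. The lower bounds of the intervals were above 2 in each table, but each rests on pooled RNA without a replicate check.

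**Figure D2:**
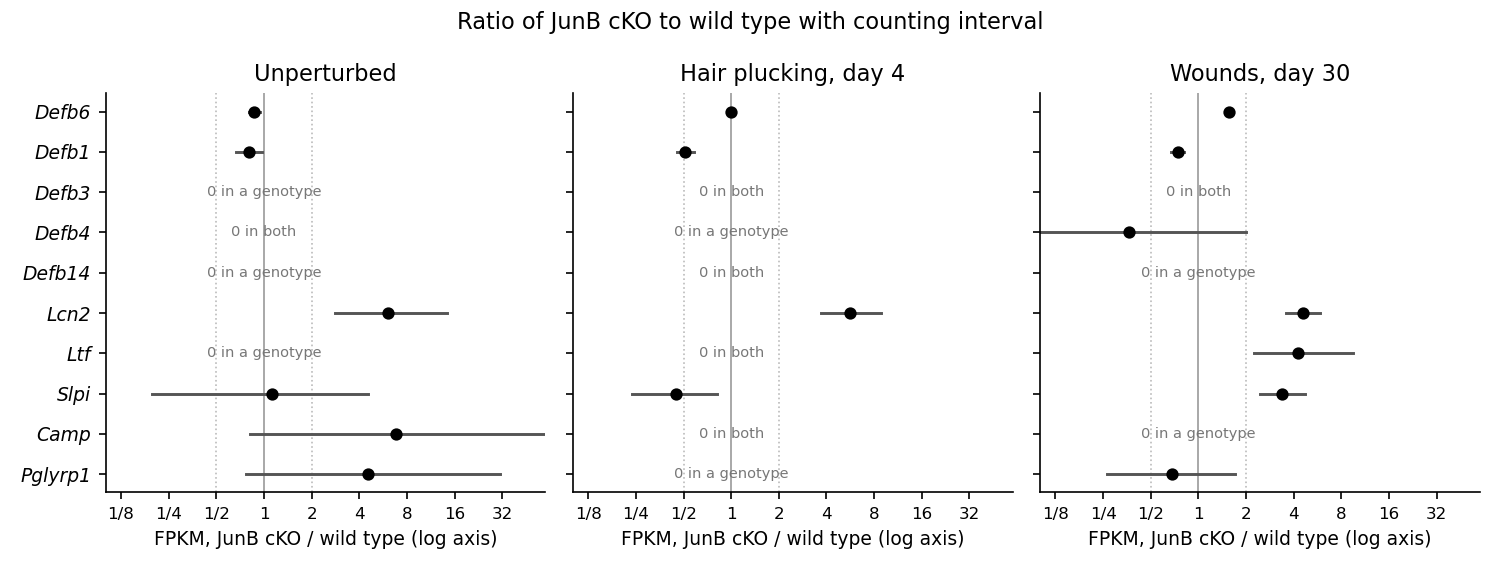
Ratio of JunB cKO to wild type FPKM on a log axis for each gene and table, with exact 95% counting intervals as bars. Dotted lines mark 2-fold, bars that reach an edge run past it, and grey text marks genes listed at 0 in a genotype. Lcn2 lies at 6.10, 5.63 and 4.59, and Slpi at 0.450 after hair plucking but 3.40 in wounds.

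Slpi differed between genotypes in opposite directions after hair plucking and in wounds. The gene (ENSMUSG00000017002.14) lies on the minus strand of chromosome 2, from 164354070 to 164389095. It had 0.788 FPKM in unperturbed wild type and 0.891 FPKM in JunB cKO, from 9 and 3 reads, and 374 of 1480 sensory receptor genes were at or above the latter value. After hair plucking it had 4.09 FPKM in wild type and 1.84 FPKM in JunB cKO, from 45 and 16 reads. In wounds it had 1.74 FPKM in wild type and 5.90 FPKM in JunB cKO, from about 51 and 161 reads. Unperturbed values could not be told apart, with a ratio of 1.13 (0.197 to 4.53). Wild type was 2.22-fold higher (1.23 to 4.21) after hair plucking, whereas JunB cKO was 3.40-fold higher (2.46 to 4.75) in wounds. Neutrophil elastase and cathepsin G, the classical targets of this inhibitor, are encoded by Elane and Ctsg. Elane was listed at 0 in both genotypes after hair plucking and in wounds, and Ctsg was listed at 0 after hair plucking and had 0.201 and 0.189 FPKM in wounds.

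Ltf, Camp and Pglyrp1 were at most 1.67 FPKM in any column, and the clearest differences were those of wounds. Ltf (ENSMUSG00000032496.7, chromosome 9, plus strand, from 111019271 to 111042767) had 0.103 FPKM in wild type and 0.441 FPKM in JunB cKO wounds, from about 11 and 45 reads. This was 4.28-fold higher (2.24 to 9.44) in JunB cKO, although the level was too low to pass the limit on FPKM + 1. Ltf was listed at 0 in both plucked genotypes and in unperturbed wild type, and had 0.261 FPKM in unperturbed JunB cKO, from 3 reads. Camp (ENSMUSG00000038357.10, chromosome 9, minus strand, from 109847379 to 109849617) was listed at 0 in wild type wounds, where 3 reads correspond to 0.124 FPKM, and at 0.671 FPKM in JunB cKO wounds, from about 15 reads. Camp had 0.148 and 1.01 FPKM in unperturbed wild type and JunB cKO, and was listed at 0 in both plucked genotypes. The unperturbed values gave estimates that round to 1 and 3 reads, but neither estimate came within 0.05 of a whole read. Rounding lowered the count of wild type and raised that of JunB cKO, so both counts are uncertain. Iron-binding lactoferrin and the cathelicidin thus had more reads in JunB cKO than in wild type wounds. Pglyrp1 (ENSMUSG00000030413.7, chromosome 7, plus strand, from 18871331 to 18890459) did not follow them in wounds, with 0.664 FPKM in wild type and 0.450 FPKM in JunB cKO, a ratio of 0.678 (0.264 to 1.72). After hair plucking Pglyrp1 was listed at 0 in wild type but at 0.807 FPKM in JunB cKO, from 5 reads. In unperturbed samples Pglyrp1 had 0.369 FPKM in wild type and 1.67 FPKM in JunB cKO, from 3 and 4 reads, with a ratio of 4.52 (0.765 to 30.9). The unperturbed JunB cKO values of these 3 genes were not separate from the background, since 1177 receptor genes were at or above Ltf, 357 at or above Camp and 70 at or above Pglyrp1.

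**Figure D3:**
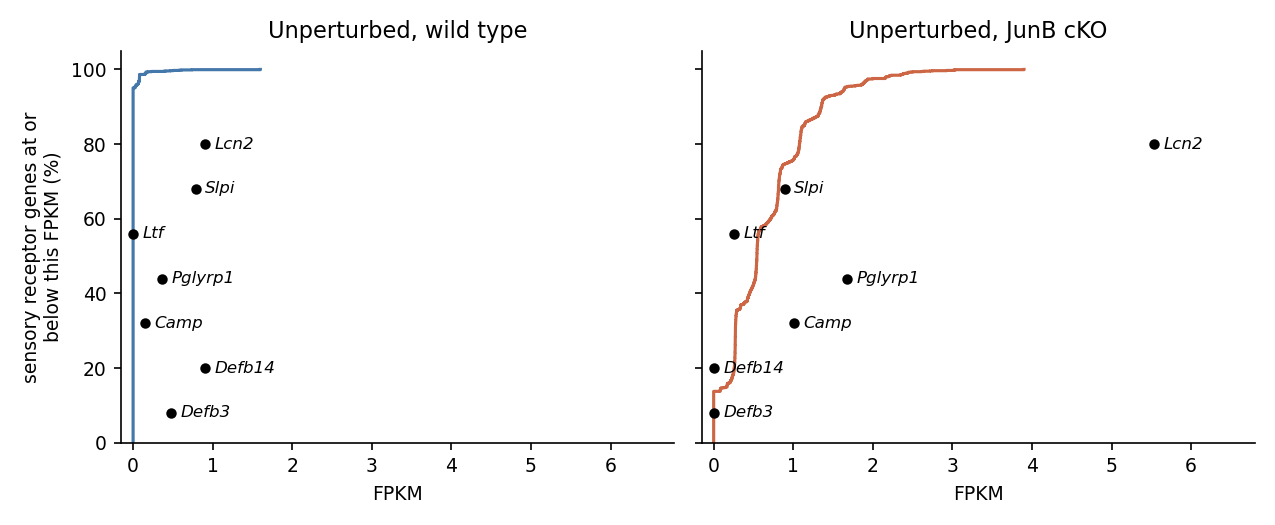
Cumulative share of 1480 sensory receptor genes (line, y axis in percent) against FPKM (x axis) in unperturbed wild type and JunB cKO, with the FPKM of 7 low defence genes as points at arbitrary heights. In JunB cKO the line reaches 3.90 FPKM, so that Lcn2 at 5.53 FPKM lies beyond it while Slpi, Camp, Pglyrp1 and Ltf lie within it.

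Counted over the 10 genes at a limit of 2-fold on FPKM + 1, 1 was higher in unperturbed JunB cKO (Lcn2) and 0 were lower, beside 9.31% of all genes higher and 0.847% lower, or 15.4% and 1.4% of genes that reached 1 FPKM. After hair plucking 2 were higher (Lcn2 and Defb4) and 0 lower, beside 6.42% and 5.62% of all genes, or 18.2% and 16% of those that reached 1 FPKM. In wounds 3 were higher (Lcn2, Slpi and Defb14) and 0 lower, beside 2.14% and 1.97% of all genes, or 5.69% and 5.23% of those that reached 1 FPKM. Defb14 passed with about 3 reads. Of the 10 genes, 5 per comparison reached 1 FPKM in either genotype, but not the same 5. The median log2((cKO + 0.1)/(WT + 0.1)) of the 10 genes was 0.08 in unperturbed samples, 0.00 after hair plucking and 1.03 in wounds, beside 0.18, 0.00 and 0.00 for all genes.

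Other secreted defence genes were read in the same way. Of 51 listed in the unperturbed table, 9 were 2-fold higher and 1 lower in JunB cKO, beside 9.31% and 0.847% of all genes, and 6 of the 9 lay within the range of the sensory receptor genes, the others being S100a8, S100a9 and Ccl20. Of 52 listed after hair plucking 7 were higher and 9 lower, beside 6.42% and 5.62% of all genes. Of 50 listed in wounds 4 were higher and 1 lower, beside 2.14% and 1.97%. Genes near 0 cannot be called, so shares were also taken over genes that reached 1 FPKM. Of these, 29.0% were higher and 3.23% lower in unperturbed samples, beside 15.4% and 1.4% of all such genes. The shares were 25.9% and 33.3% after hair plucking, beside 18.2% and 16%, and 14.8% and 3.70% in wounds, beside 5.69% and 5.23%. S100a8 and S100a9 encode the subunits of calprotectin, which binds zinc and manganese. S100a9 had 2.88 FPKM in wild type and 11.2 FPKM in JunB cKO in unperturbed samples, 2.56 and 250.4 after hair plucking, and 10.9 and 77.5 in wounds. S100a8 had 2.16 and 9.43 FPKM in unperturbed samples, was listed at 0 in plucked wild type beside 152 FPKM in plucked JunB cKO, and had 36.7 and 139 FPKM in wounds. The calprotectin genes were thus, like Lcn2, higher in JunB cKO in each table. Ccl20, a chemokine with antimicrobial activity that shares the receptor CCR6 with beta-defensins, had 2.37 and 10.01 FPKM in unperturbed samples, 12.3 and 9.44 after hair plucking, and 2.03 and 3.39 in wounds. S100a7a had 0.766 and 1.48 FPKM in unperturbed samples, was listed at 0 in plucked wild type beside 5.04 FPKM in plucked JunB cKO, and had 67.6 and 32.3 FPKM in wounds. Retnla and Wfdc18 had 11.7 and 11.5 FPKM in plucked wild type and were listed at 0 in plucked JunB cKO, and in wounds they had 61.6 and 56.3 FPKM and 9.02 and 6.05 FPKM, respectively. Itln1 and Wfdc12 had 9.14 and 6.57 FPKM in plucked JunB cKO and were listed at 0 in wild type. Among secreted inhibitors, Cst3 had 597 and 438 FPKM in unperturbed samples, 562 and 382 after hair plucking, and 415 and 449 in wounds.

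The pathways that induce these peptides were read from 53 cytokine, receptor, toll-like receptor and transcription factor genes. In unperturbed samples 4 of 53 were 2-fold higher and 0 lower in JunB cKO, beside the 9.31% and 0.847% of all genes, and 3 of the 4 lay within the range of the sensory receptor genes, the other being Il1a. After hair plucking 6 of 51 were higher and 6 lower, beside 6.42% and 5.62%, and in wounds 3 of 51 were higher and 1 lower, beside 2.14% and 1.97%. Of those that reached 1 FPKM, 10% were higher and 0% lower in unperturbed samples, beside 15.4% and 1.4% of all such genes. The shares were 15% and 15% after hair plucking, beside 18.2% and 16%, and 7.5% and 2.5% in wounds, beside 5.69% and 5.23%. The interleukin 17 receptor subunit Il17rc had 8.86 FPKM in wild type and 41.8 FPKM in JunB cKO after hair plucking, and 12.2 and 51.4 FPKM in wounds, but 77.4 and 58.6 FPKM in unperturbed samples. Il1a had 1.87 and 5.91 FPKM in unperturbed samples, 6.06 and 15.4 after hair plucking, and 3.97 and 4.52 in wounds. The interleukin 36 gene Il1f6 had 0.260 and 1.76 FPKM in unperturbed samples, 10.9 and 27.0 after hair plucking, and 1.02 and 3.87 in wounds. Il1b had 2.83 and 5.16 FPKM in unperturbed samples and 4.25 and 13.7 FPKM in wounds, whereas after hair plucking it had 6.43 FPKM in wild type and was listed at 0 in JunB cKO. Of the cytokines of the interleukin 17 pathway themselves, Il17a and Il17f did not exceed 0.413 FPKM in any column. Of receptors and processing enzymes of the peptides, 1 of 22 was higher and 0 lower in unperturbed JunB cKO, beside 9.31% and 0.847% of all genes. This 1 gene lay within the range of the sensory receptor genes. After hair plucking 1 of 20 was higher and 1 lower, beside 6.42% and 5.62%. In wounds 1 of 20 was higher and 0 lower, beside 2.14% and 1.97%. Of those that reached 1 FPKM, 11.1% were higher and 0% lower in unperturbed samples, beside 15.4% and 1.4% of all such genes. The shares were 7.14% and 7.14% after hair plucking, beside 18.2% and 16%, and 6.67% and 0% in wounds, beside 5.69% and 5.23%. P2rx7, a receptor through which cathelicidin acts, was the lower gene after hair plucking, with 33.1 and 5.81 FPKM, and had 3.74 and 2.68 FPKM in unperturbed samples and 15.2 and 12.5 FPKM in wounds. Klk5 and Klk7 encode kallikreins that process cathelicidin in the epidermis. Klk5 had 158 and 177 FPKM in unperturbed samples, 61.8 and 104.9 after hair plucking, and 20.95 and 20.37 in wounds. Klk7 had 152 and 222 FPKM in unperturbed samples, but 757 and 550 after hair plucking and 325 and 242 in wounds.

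**Figure D4:**
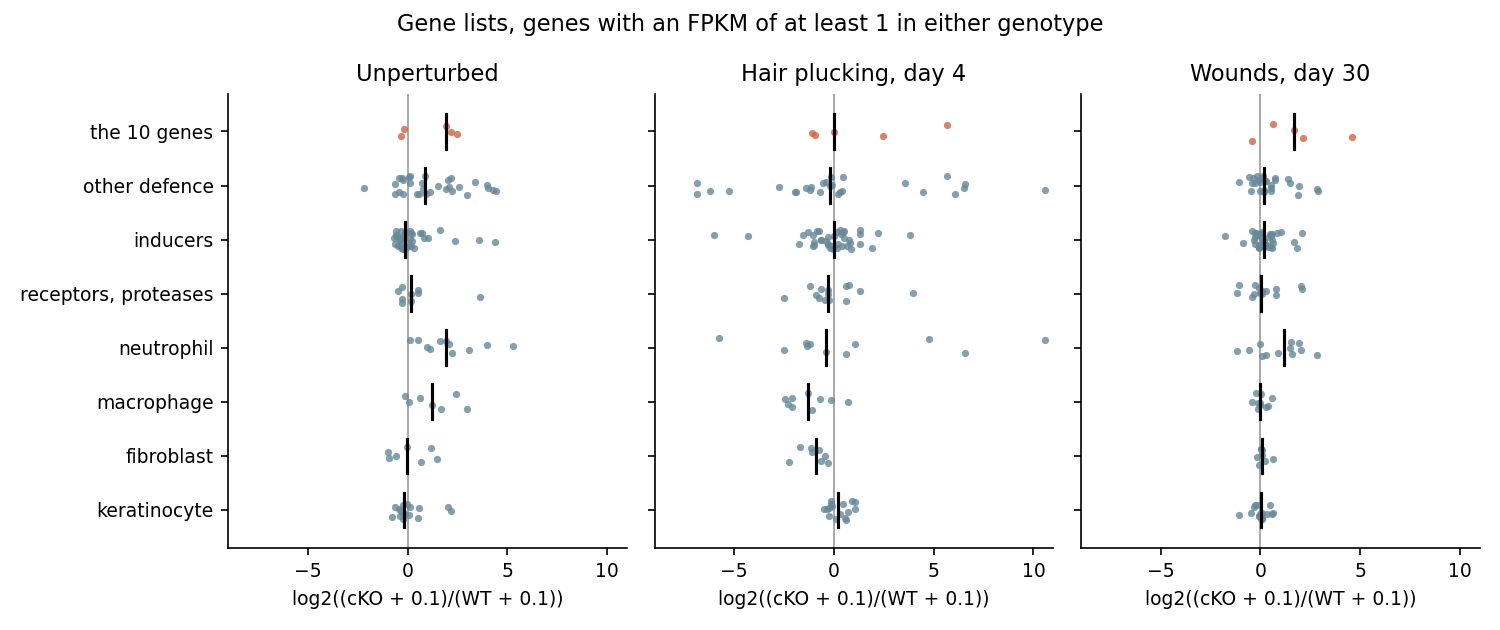
Log2 ratio of JunB cKO to wild type with a pseudocount of 0.1 for genes of each list that reached 1 FPKM in wild type or JunB cKO, as 1 point per gene with the median as a bar. Of the 10 defence genes, 5 are shown in each table. Macrophage and fibroblast genes lie mostly below 0 after hair plucking, and S100a8 and S100a9 are the points furthest to the right among neutrophil genes there.

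Cell types that could supply or dilute these transcripts were read from marker genes. Keratinocyte markers were abundant in each column, with a sum over 16 genes of 14862 FPKM in wild type and 15580 FPKM in JunB cKO in unperturbed samples, 12689 and 14503 after hair plucking, and 5942 and 6614 in wounds. The labelled tissue was thus present in each. Macrophage markers summed to 142 FPKM in wild type and 44.8 FPKM in JunB cKO after hair plucking, and fibroblast markers to 5399 and 2069 FPKM. In wounds the sums were 193 and 194 FPKM for macrophages and 11011 and 13921 FPKM for fibroblasts. In unperturbed samples they were 9.43 and 16.2 FPKM and 46.7 and 36.1 FPKM. Plucked biopsies of the genotypes therefore differed in macrophage and fibroblast markers, as they did in Slpi and Defb1, and the part of this in both genes was not tested.

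Neutrophils, a source of Camp, Ltf, Lcn2 and Pglyrp1, were read from 25 markers per table. In unperturbed samples 6 markers were 2-fold higher and 0 lower in JunB cKO, beside 9.31% and 0.847% of all genes, and 3 of the 6 lay within the range of the sensory receptor genes, the others being S100a8, S100a9 and BC100530. The 25 markers summed to 85.0 FPKM in wild type and 170 FPKM in JunB cKO. After hair plucking 4 were higher and 4 lower, beside 6.42% and 5.62% of all genes, with sums of 293 and 666 FPKM. Wounds had 4 higher and 0 lower, beside 2.14% and 1.97% of all genes, with sums of 435 and 617 FPKM. Of markers that reached 1 FPKM, 54.5% were higher and 0% lower in unperturbed samples, beside 15.4% and 1.4% of all such genes. The shares were 36.4% and 36.4% after hair plucking, beside 18.2% and 16%, and 33.3% and 0% in wounds, beside 5.69% and 5.23%. S100a8, S100a9, BC100530, Lyz2 and Il1r2 made up most of these sums and are also expressed by other cells. Of the markers, Elane, Mpo, Ly6g, Prtn3, Ctsg, Ngp, Fcnb, Retnlg and Chil3 were listed at 0 in both genotypes after hair plucking. Others were listed above 0 there in at least 1 genotype. Itgam had 7.51 FPKM in wild type and 2.85 FPKM in JunB cKO, Csf3r 3.55 and 0.551, and Cd177 5.29 and 0. Cxcr2 had 1.55 and 2.42 FPKM, and Ceacam10 0 and 2.65 FPKM. In wounds Elane, Mpo, Ly6g and Fcnb were listed at 0 in both genotypes, and Ngp had 0.0903 and 0.0247 FPKM. Other markers were higher in JunB cKO wounds, with 1.80 and 5.60 FPKM of Csf3r and 0.546 and 1.72 of Retnlg. Cxcr2 had 0.794 and 1.57 FPKM and Fpr1 0.175 and 1.05 FPKM there. Mmp9 went the other way, with 8.56 and 3.79 FPKM. Over the whole list, 11 markers were above and 8 below wild type in JunB cKO wounds, and 5 above and 7 below after hair plucking. The part of neutrophils in the Camp, Ltf and Lcn2 values was not tested.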

How the data were processed

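RNA-seq was carried out on 8 libraries of JunB cKO and wild type mice. The authors pooled RNA of several samples per library, depleted rRNA, prepared stranded libraries, aligned single-end reads to GRCm38 (mm10 per the labels) with TopHat or HISAT2 and calculated FPKM with Cufflinks and Cuffdiff. The deposited tables hold 1 FPKM value per genotype and locus. They also hold the authors' own log2 fold changes, test statistics, p-values and q-values, which were not used. Cuffdiff normalises to effective length, which raises the FPKM of short transcripts such as beta-defensins and makes 1 read of them worth several FPKM.

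Genotypes were taken from the sample names inside the tables and from the labels, whereas only their names tell which table holds plucked skin and which wounds. Where a symbol had several loci, that with the largest summed FPKM was used. The ratio of a single gene was given as log2((cKO + 0.1)/(WT + 0.1)), which understates the ratio of low genes, and genes were called higher or lower at 2-fold on FPKM + 1. Planned limma fits were not run, since no table has a column per library.

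Reads were recovered from single-exon loci, with fragment lengths of 200 ± 80 bases (mean and SD of a Gaussian). Of low values checked, 98.7% and 100% (unperturbed wild type and JunB cKO), 100% and 100% (hair plucking), and 71.0% and 82.1% (wounds) came within 0.05 of a whole read, so reads in wounds are approximate. Reads of members are rounded, for their principal GENCODE M21 transcript. A floor is 3 reads. Depth of the libraries as sequenced reads is not given in the tables. The estimate of reads per FPKM and the calls at 2-fold were tested on simulated data, with changes planted in abundant genes only. Calls of low genes and the other calculations, such as counting intervals, list counts, centring and sequence comparisons, were not tested in this way.

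The 10 genes, the gene lists and the limits were chosen with earlier results of these data known. Named were all 10 genes, Junb, beta-defensin genes with at least 1 FPKM, and from each other list, per table, genes among the 4 largest and 3 smallest log2 ratios with at least 5 FPKM. Other genes, such as Elane, Ctsg, Il17a, Il17f, Gapdh, further neutrophil markers, and the values of named genes in further tables, were added after their values had been seen. Promoter windows are those of RefSeq on GRCm38.p6. Alternatives were other pseudocounts (0.01 and 1 for single genes, 0.1 for calls), minimum FPKM of 1 and 10, centring, subtraction of the receptor background, summed loci, loci with the status OK only, and limits of 1.5-fold and 4-fold. Python 3.11.15 was used with numpy 2.4.6, pandas 2.3.3, scipy 1.17.1, Biopython 1.88 and, for plots, matplotlib 3.10.9.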

Additional observations from a re-analysis of the deposited data

Results flagged for a closer look

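Slpi, the protease inhibitor, had a lower FPKM in JunB cKO after hair plucking (log2 ratio -1.11) and a higher one in wounds (log2 ratio 1.71), a difference of 2.82 between both log2 ratios. Defb6 had a log2 ratio of -0.20 in unperturbed samples and 0.64 in wounds, a difference of 0.84, and in both tables the counting interval left out a ratio of 1. Relative to the median of expressed genes the unperturbed log2 ratio of Defb6 was -0.03 with an interval that includes a ratio of 1. This reading depends on which genes are taken as expressed. Both were singled out because the genotypes differed in opposite directions in 2 tables, beyond counting error in each. The difference between tables was not tested, since each table has 1 value per genotype. Of 30 pairings of a gene with 2 tables, 8 had log2 ratios of opposite sign, and in the other 6 at least 1 counting interval included a ratio of 1.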

How the results depend on the processing

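No paired analysis was possible because the wound table holds 1 value per genotype, so neither the fit with a replicate block nor the fits without 1 library were run. For the same reason no value remains without the thinly sequenced unperturbed JunB cKO library. No called gene turned its direction under any alternative. Of 119 recomputed log2 ratios of genes with reads in both genotypes, 117 moved by less than counting error, the exceptions being Defb6 in unperturbed samples with centring (-0.03) and Ltf in wounds with a pseudocount of 1 (0.39). Genes listed at 0 in a genotype have no counting error, and their log2 ratio follows the pseudocount: Defb4 after hair plucking ranged from 2.56 to 8.94, Pglyrp1 there from 0.85 to 6.35, Defb14 in wounds from 1.72 to 7.85, Camp in wounds from 0.74 to 6.09, and Ltf in unperturbed samples from 0 to 4.76. The log2 ratio of Lcn2 ranged from 1.78 to 2.66 in unperturbed samples, from 2.08 to 2.49 after hair plucking and from 1.86 to 2.19 in wounds. Slpi in unperturbed samples, which was not called, ranged from -0.99 with the receptor background subtracted to 0.33 with centring. Counts of called genes depended on the limits. The share of all genes called under each alternative was not computed, so these counts cannot be set against a background. With a pseudocount of 0.1 for the call, 4 genes were higher and 2 lower in unperturbed samples, 1 was lower after hair plucking, and 5 were higher and 1 lower in wounds. With a minimum of 10 FPKM, 0 of 2 genes were higher in unperturbed samples, 1 of 3 after hair plucking and 1 of 3 in wounds. With centring, 2 were higher in unperturbed samples. At 1.5-fold, 3 were higher and 1 lower in unperturbed samples, 2 were lower after hair plucking, and 5 were higher in wounds. At 4-fold, 0 were higher in unperturbed samples and 0 in wounds. The minimum and the limits act through fewer or more genes that can pass. Centring raises every unperturbed log2 ratio, and the gene added by it was Pglyrp1. This gene had a log2 ratio of 0.96 on FPKM + 1, just under the 2-fold limit, from 3 and 4 reads. The median log2 ratio of the genes, which has no counting error, depended on which genes entered. In unperturbed samples it was 1.92 over 5 genes with at least 1 FPKM and 0.86 over 4 with the status OK, and it was below 0 with a minimum of 10 FPKM (-0.26) and with the receptor background subtracted (-0.10). After hair plucking it was 1.22 over 6 genes with the status OK. In wounds it was 1.71 over 5 genes with at least 1 FPKM and over 7 with the status OK, and 0.51 with a pseudocount of 1. Under the remaining alternatives it moved by less than 1.5-fold.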
